A study of Mus musculus with 180 samples.

Results

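The 6 genes described here, Pramel7, Pramel6, Pramef17, Pramel4, Pramel5 and Pramef12, belong to the PRAME family of mouse chromosomes 2 and 4. They were proposed because several of them differed between embryonic stem cells (ESCs) of the inbred strains C57BL/6J (B6) and DBA/2J (D2), so they were chosen by the measured D2 minus B6 difference of ESC RNA, which is given below as a description, without a test. Of the 12730 genes in the ESC RNA table, 4 were members (Pramel7, Pramel6, Pramef17 and Pramef12), and of the 12735 genes in the table of epiblast-like cells (EpiLCs) only Pramef12 was. RNA of Pramel4 and Pramel5 was not analysed here, and both are described through the chromatin regions near them.

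The study profiled RNA and open chromatin (ATAC-seq, which reads where a transposase can insert) in naive ESCs and in EpiLCs, the formative state that ESCs pass into on the way to germ layers. Each parental group held 3 lines, B41, B44 and B51 of B6 and D29, D55 and DAC203 of D2. The B6D2F1/J (F1) group held 3 ESC lines, and 33 BXD lines, from recombinant inbred strains whose genomes are mosaics of B6 and D2, gave 1 ESC and 1 EpiLC library per assay. Binding of TRIM28 was mapped in ESCs of all 3 lines per strain, and binding of the coactivator P300 and of the pluripotency factor POU5F1 in 2 lines per strain. Each line is 1 derivation, so the spread between lines holds both culture and clone. None of the groups carries a transgene or an induced mutation according to the labels. In bulk RNA, fewer expressing cells and less RNA per cell cannot be told apart.

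PRAME proteins are built of leucine-rich repeats and are named after a human antigen that is made in testis and in many tumours. Several act as substrate receptors of Cullin 2 ubiquitin ligases. PRAMEL7 is known for driving the degradation of UHRF1, the factor that recruits the maintenance DNA methyltransferase, and so for the low DNA methylation of ground-state pluripotent cells. In mice the family has expanded into tandem clusters whose copies can be nearly identical.

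On the mm10 build (gene models of GENCODE for GRCm38), Pramel7 (ENSMUSG00000025839) lay at chr2:87489087-87497093 on the minus strand and Pramel6 (ENSMUSG00000025838) next to it at chr2:87506565-87510872 on the plus strand. The other 4 lay on chromosome 4: Pramef17 (ENSMUSG00000078509, named Pramel14 by RefSeq) at chr4:143991119-143994369, minus strand; Pramel4 (ENSMUSG00000073724) at chr4:144059126-144069327, plus strand; Pramel5 (ENSMUSG00000036749) at chr4:144270633-144280488, minus strand; and Pramef12 (ENSMUSG00000028591, named Pramel13 by RefSeq) at chr4:144391674-144408464, minus strand. RefSeq gives 53 genes a PRAME family name, 28 of them on chromosome 4 and 2 on chromosome 2. For Pramel7 the annotations differ: the RefSeq start used here is at position 87492418 and the outermost GENCODE start at 87497093.

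The sequence just before the start shows how close some of these genes are although they sit on different chromosomes. Among the 6 members and Gm13128, a chromosome 4 neighbour, the 250 bases before the start were most alike within 2 sets. Pramef17 and Gm13128 (named Pramel30 by RefSeq) were 98.0% identical, and Pramel7 of chromosome 2 was 83.9% identical to Pramef17, while Pramel7 and its own neighbour Pramel6 were 62.4% identical. Pramel4 and Pramel5 were 95.7% identical. The 3 related sequences are printed from RefSeq on GRCm38.p6, each 5′ to 3′ on its own strand and ending at the base before the start, with capitals marking the runs of at least 12 bases that all 3 share in the same order (87 bases in each). They lie at chr2:87492419-87492668 (minus), chr4:143994370-143994619 (minus) and chr4:144329999-144330248 (plus).
Pramel7: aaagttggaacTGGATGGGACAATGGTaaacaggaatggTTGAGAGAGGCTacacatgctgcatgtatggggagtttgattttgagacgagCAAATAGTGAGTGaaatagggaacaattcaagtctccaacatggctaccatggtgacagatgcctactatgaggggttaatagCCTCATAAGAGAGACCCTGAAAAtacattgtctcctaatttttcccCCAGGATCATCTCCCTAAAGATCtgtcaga
Pramef17: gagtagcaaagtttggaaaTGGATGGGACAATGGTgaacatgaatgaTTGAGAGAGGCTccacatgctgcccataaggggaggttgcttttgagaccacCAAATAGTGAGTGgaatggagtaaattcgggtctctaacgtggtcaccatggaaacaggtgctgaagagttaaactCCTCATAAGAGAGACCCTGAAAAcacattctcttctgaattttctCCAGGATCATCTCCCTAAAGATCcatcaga
Gm13128: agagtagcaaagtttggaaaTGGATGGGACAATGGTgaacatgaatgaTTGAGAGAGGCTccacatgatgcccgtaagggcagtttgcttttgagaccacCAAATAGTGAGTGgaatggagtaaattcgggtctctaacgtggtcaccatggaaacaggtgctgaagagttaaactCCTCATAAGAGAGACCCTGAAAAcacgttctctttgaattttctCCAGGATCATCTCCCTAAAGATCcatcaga
Of the 32851 promoters of the RefSeq table, 3 hold each of the runs of 13, 16 and 23 bases, namely these 3, and 8 hold the run of 12 bases. Searched on both strands, none of the 7 promoters held TTCNNNGAA (a STAT motif), ATGCAAAT (an octamer), CACGTG (an E-box) or TATAAA (the box bound by the general promoter machinery), which were present in 7.02%, 1.60%, 6.02% and 12.4% of all promoters of the same length; the 4 patterns do not contain one another. The number of CpG dinucleotides varied: Pramel5 had 0, Pramel7 and Pramel4 had 1 each, Pramef17 and Pramel6 had 2 each, Gm13128 had 4 and Pramef12 had 6, against a median of 6 over all promoters.

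In ESCs, all 4 members with RNA values were higher in every D2 line than in every B6 line. The share of all genes without such overlap was not counted, so nothing is read from this for genes that the same contrast chose. Values are the authors' normalised counts, and differences are on the scale log2(value + 1). Pramel7 was at 2.25, 2.32 and 2.05 in B41, B44 and B51 and at 39.2, 58.6 and 32.2 in D29, D55 and DAC203 (difference 3.75, SE 0.19, n = 3 per strain). Pramel6, a close relative of Pramel7, was at 1.48, 1.30 and 1.01 in B6 and at 14.4, 14.4 and 15.98 in D2 (difference 2.82, SE 0.14). On chromosome 2 the strains therefore did not overlap for either gene, and the D2 lines differed among themselves more for Pramel7 than for Pramel6. Pramef17 was at 0.0616, 0 and 0.345 in B6, near the bottom of the table, and at 14.3, 16.1 and 16.4 in D2 (difference 3.88, SE 0.16). Pramef12, a gene known for its part in the male germ line, was at 32.04, 30.5 and 30.4 in B6 and at 89.2, 79.5 and 90.5 in D2 (difference 1.45, SE 0.08). Pramef12 was thus the member with the highest level in B6 and the smallest difference. Over all 12694 genes tested, 17.3% were called higher in D2 and 20.3% lower (limma, adjusted p under 0.05), and nothing is read from this share for genes that the same contrast chose. With a pseudocount of 0.1 in place of 1, the differences became 6.34 for Pramef17, 4.19 for Pramel7 and 3.48 for Pramel6.

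**Figure D1:**
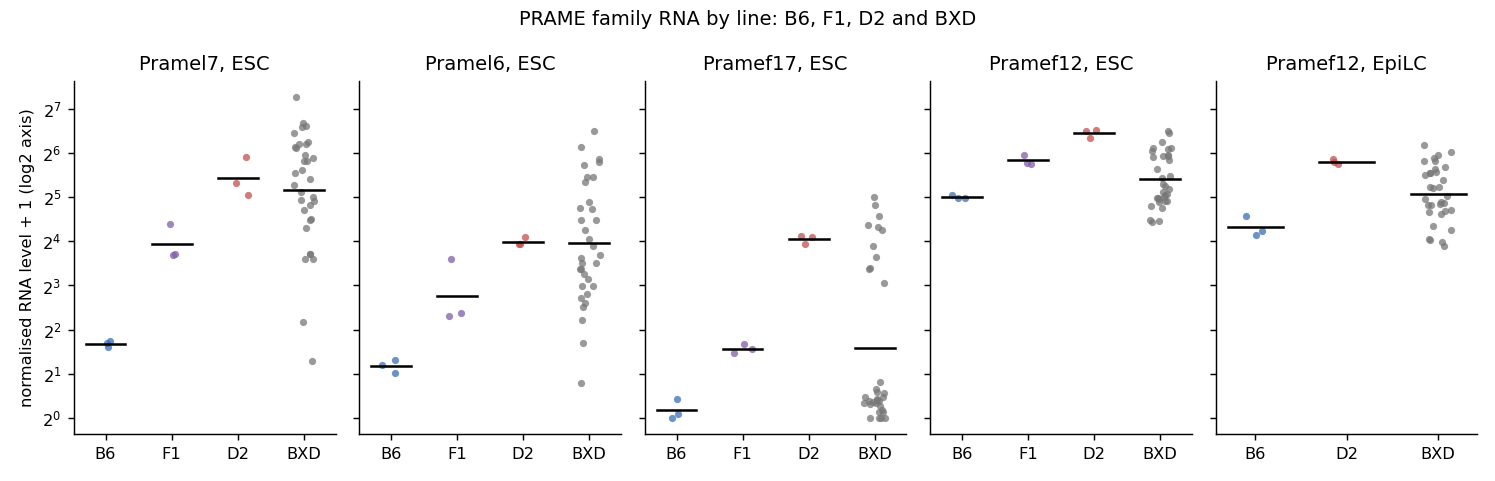
RNA levels of the 4 measured members, as normalised counts plus 1 on a log2 axis, with 1 point per line, for B6, F1, D2 and BXD ESCs and, on the right, for Pramef12 in EpiLCs. Bars are means of the log2 values; B6 and D2 points do not overlap in any panel, F1 points lie between them, and the BXD points of Pramef17 form 2 sets of 22 and 11 lines.

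Pramef17 has a near-identical neighbour, so its RNA cannot be assigned to it with certainty. The transcripts of Pramef17 and Gm13128 (ENSMUSG00000078508, chr4:144330249-144333465, plus strand) were 99.3% identical over 1745 bases, and the 2 genes lie 335.9 kb apart. They are part of an inverted duplication: 11 segments, 29.7 kb in all, aligned between both places at 97.5% identity. Gm13128 was itself at 1.74 to 1.98 in B6 ESCs and at 60.8 to 75.5 in D2 ESCs (difference 4.58, SE 0.12). Some of its reads may fit Pramef17, which this contrast chose, so these values are a description without a test. The sum of the 2 genes was 2.01 ± 0.0997 in B6 and 83.3 ± 6.26 in D2 (SD, n = 3 each), a difference of 4.81. The sum does not depend on how reads were divided between the 2 genes, but the value of Pramef17 alone may. As the same contrast chose Pramef17, the sum is a description too. Gm13128 averaged 67.7 in D2 and so made up most of the sum. No label or header used here says how reads that fit several places were treated. Among the other members, Pramel4 was 99.9% identical to Gm13102 and Pramel5 92.7% to Pramel4, Pramel7 had its closest relative at 91.5% (Gm5949), Pramel6 had one at 85.9% over 717 bases (Gm3126), and none was found for Pramef12.

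In EpiLCs, Pramef12 stayed higher in D2 by nearly the same amount as in ESCs. It was at 16.8 to 22.7 in the 3 B6 lines and at 52.6 to 57.7 in the 3 D2 lines, with no overlap (difference 1.49, SE 0.11, n = 3 per strain, limma adjusted p = 3.8e-07). This is a common kind of result in these cells: 28.5% of the 12692 genes tested were called higher in D2 and 29% lower. Pramel7, Pramel6 and Pramef17 have no EpiLC values here. Gm13128 was close to 0 in EpiLCs of both parental strains, with a mean of 0.0180 in B6 and 0.338 in D2. Over the 33 BXD EpiLC libraries it ranged from 0 to 5.05, with a median of 0.

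In the F1 lines, which carry 1 genome of each strain, Pramef12 and the chromosome 2 genes lay between the parents. Pramef12 was at 53.2, 54.2 and 61.4, with a mean that is 0.956 of the mean of both parents. Pramel7 was at 11.9, 12.2 and 19.96 (0.642 of that mean) and Pramel6 at 3.93, 4.23 and 11.1 (0.791). For both chromosome 2 genes 1 F1 line stood above the other two. On the log2 scale the F1 values differed from the midpoint of the parents by 0.11 for Pramef12 (SE 0.07, limma adjusted p = 0.416), 0.37 for Pramel7 (SE 0.19, adjusted p = 0.314) and 0.18 for Pramel6 (SE 0.25, adjusted p = 0.734), none past the threshold.

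Pramef17 in the F1 was low. Its 3 F1 lines were at 1.75, 1.93 and 2.21, which is 0.249 of the mean of both parents on the linear scale, and all 3 lay below the log2 midpoint. The difference from that midpoint was -0.55 (SE 0.13, n = 3 per group, limma adjusted p = 0.0442), the only call among the 4 members, against 3.29% of all genes. It is a fragile call: with a pseudocount of 0.1 the difference was 0.24 (adjusted p = 0.768), leaving out any 1 of 8 of the 9 libraries raised the adjusted p to between 0.0545 and 0.194, and for the sum with Gm13128 the difference was 0.19. Gm13128 alone was at 14.5 to 16.6 in the F1, 0.436 of the mean of both parents (log2 difference 0.21, SE 0.09, adjusted p = 0.25).

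Across the 33 BXD lines Pramef17 RNA fell into 2 sets. In 22 lines it was at most 0.762 and in the other 11 at least 7.30, with no line between, and 6 lines exceeded the highest D2 line. Gm13128 ranged from 1.75 to 163, and its largest gap separated the same lines: the 11 lines high for Pramef17 had at least 34.1 and the other 22 at most 19.2. Within the 11 high lines the 2 genes rose and fell together (Spearman's rho 0.873), whereas within the 22 low lines they did not (rho -0.121). These are descriptions of near-identical genes, and some reads may fit both.

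Pramef12 followed the same 11 lines. In ESCs it ranged over the BXD lines from 20.5 to 89.7 (median 36.9). The 11 lines high for Pramef17 held 59.5 to 89.7, and the other 22 held 20.5 to 56.2, so the sets did not overlap. Pramef12 was not used to form them, but it lies near Pramef17 on chromosome 4. Neighbouring genes of a mosaic genome often come from the same parent, so this agreement is not independent. Genotypes of the lines were not used here. No line exceeded the highest D2 line, while 9 lay below the lowest B6 line.

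On chromosome 2, levels above the parents were found in the BXD lines. Pramel7 ranged from 1.44 to 153 (median 41.5), and 31 of 33 lines lay above the log2 midpoint of the parents, 11 of them above the highest D2 line. Pramel6 ranged from 0.738 to 88.9 (median 11.96), with 29 lines above the midpoint and 14 above the highest D2 line. By the rule that set the Pramef17 lines apart (a gap of at least 25% of the log2 range with at least 3 lines on each side), Pramel7, Pramel6, Pramef12 and Gm13128 did not split the lines.

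Pramel7 and Pramel6 varied together over the lines. Pearson's r was 0.778 and Spearman's rho 0.761 over 33 lines (two-sided permutation test, Benjamini-Hochberg adjusted p = 9e-05 for each over the 9 correlations computed between members, from a raw p of 1e-05, the smallest that 100000 permutations can give), and r was 0.679 without the 2 lines farthest from the median. Within the 11 and the 22 lines set apart by Pramef17, r was 0.625 and 0.804. Pramef12 was not detectably related to Pramel7 (r 0.189, adjusted p = 0.664) or to Pramel6 (r 0.123, adjusted p = 0.777). Within the 2 sets of Pramef17 lines, none of its 6 correlations with the other members passed the threshold, with adjusted p from 0.538 to 0.860 for r.

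Pramef12 RNA in ESCs and EpiLCs of the same 33 lines had r 0.504 and rho 0.479 (permutation test, p = 0.0031 and 0.00567), and r was 0.525 without the 2 farthest lines. This relation did not hold inside the 2 sets of lines: within the 11 high lines r was -0.262, and within the other 22 it was -0.031. The median EpiLC level was 50.2 in the former and 27.5 in the latter.

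**Figure D2:**
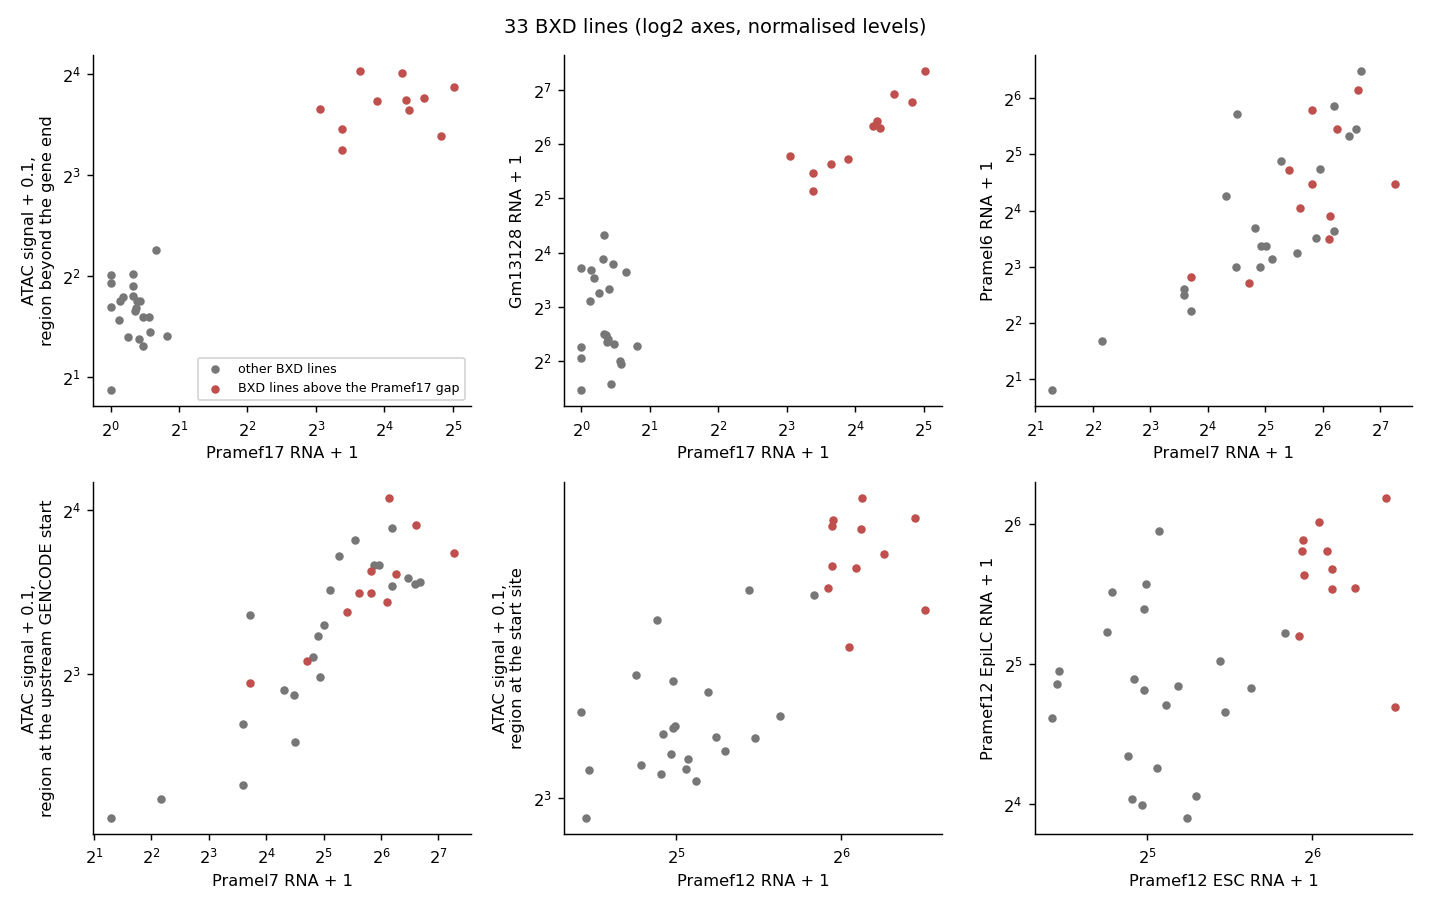
Each point is 1 of 33 BXD lines, on log2 axes, with the 11 lines above the gap of Pramef17 in red: Pramef17 RNA against an ATAC region beyond its end and against Gm13128, Pramel7 against Pramel6 and against the ATAC region at its upstream start, and Pramef12 against its promoter ATAC and against its EpiLC RNA. Red and grey points separate without overlap for Pramef17, Gm13128 and Pramef12 in ESCs and mix for Pramel7 and Pramel6.

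Chromatin near the members was more open in D2 ESCs. Of 25 ATAC regions within 20 kb of a member, each counted once with its nearest member, 20 were called higher in D2, 1 lower and 4 neither, where 22.2% of all 112226 regions were called higher and 24.7% lower. The median log2 difference was 0.83. The higher calls were 4 of 4 regions at Pramef17, 6 of 7 at Pramel7, 3 of 4 at Pramel6, 1 of 2 at Pramel4, 1 of 2 at Pramel5 and 5 of 6 at Pramef12.

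At Pramel7 the RefSeq start itself changed. The region chr2:87491987-87492722, which covers it, had signals of 1.01, 1.47 and 1.01 in B6 and 4.14, 5.19 and 3.45 in D2 (log2 difference 1.78, SE 0.19, limma adjusted p = 2.64e-07). The region chr2:87495680-87498220, at the upstream GENCODE start, had 4.21, 4.56 and 4.22 in B6 and 13.3, 14.7 and 11.6 in D2 (difference 1.58, SE 0.10, adjusted p = 6.03e-10). Every D2 library exceeded every B6 library at both starts. Over the BXD lines Pramel7 RNA rose with the first (r 0.668, rho 0.669, permutation test, adjusted p = 2e-05 and 6e-05; r 0.609 without the 2 farthest lines). Correlations with every region within 20 kb, added after the data were seen, gave the highest of 26 values for the second (r 0.876, rho 0.842, adjusted p = 5.2e-05 and 8.67e-05; r 0.805 without the 2 farthest lines).

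Pramel6 had no ATAC region over its start, and the nearest, chr2:87503194-87504161, was 2.23 to 2.77 in B6 and 4.61 to 5.17 in D2 (difference 0.92, SE 0.13, limma adjusted p = 1.19e-05). The strongest element of the cluster lay beyond the end of Pramel6 at chr2:87514575-87518965, with 33.4 to 37.7 in B6 and 54.8 to 70.1 in D2 (difference 0.83, SE 0.08, adjusted p = 2.19e-07).

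Further out, past chr2:87520382-87521969, which was called higher in D2, chr2:87525789-87526578 went the other way and had little signal in D2. Its ESC ATAC signal was 5.02, 4.56 and 4.47 in B6 and 0.390, 0.444 and 0.394 in D2 (difference -3.23, SE 0.20, limma adjusted p = 1.73e-10). It is called lost in D2 for its signal only. Whether D2 lines carry its sequence was not tested. A difference in accessibility or binding and a difference in the sequence that reads can map to cannot be told apart here. Over the BXD lines this region formed 2 sets, 17 lines at or below 0.663 and 16 at or above 4.18, as Pramef17 did on chromosome 4. Of the 16 lines with an open region, 14 lay above the midpoint of the parents for Pramel7 RNA and 12 for Pramel6 RNA. All 17 lines without it lay above both midpoints. The 2 lines below for Pramel7 and the 4 below for Pramel6 thus had the open region. With 31 and 29 of the 33 lines above, these counts cannot show whether the sets sort either gene.

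At Pramef17 no ATAC region of the main table covered the start. The nearest, chr4:143996980-143997821, was 1.12, 0.670 and 1.19 in B6 and 5.02, 4.84 and 4.81 in D2 (difference 2.23, SE 0.19, limma adjusted p = 1.48e-08). The largest difference was at chr4:143988732-143989206, just beyond the gene's end, with 0.304 to 0.558 in B6 and 2.44 to 3.17 in D2 (difference 2.44, SE 0.24, adjusted p = 1.27e-07). The highest signal was 7.07 kb past the end, at chr4:143982940-143984054, with 3.25, 3.35 and 3.39 in B6 and 13.8, 11.2 and 11.3 in D2 (difference 1.82, SE 0.11, adjusted p = 1.46e-10). In the BXD lines this last region was above its gap, at 9.38 or more, in exactly the 11 lines high for Pramef17 RNA and at 4.68 or less in the other 22. All 4 regions near Pramef17 have a copy at 97.1% to 99.3% identity near Gm13128, so the reads behind them carry the same uncertainty as the RNA. The regions near Pramel4 and Pramel5 have copies at 93.8% to 96.5%, and none was found on chromosomes 2 and 4 for those near Pramel7, Pramel6 and Pramef12.

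Pramef12 had an ATAC region over its start, chr4:144407101-144409119, at 7.30, 7.46 and 8.37 in B6 and 10.6, 11.7 and 10.1 in D2 (difference 0.48, SE 0.09, limma adjusted p = 3.65e-04). Its largest difference was inside the gene at chr4:144395638-144397225, with 4.02 to 4.82 in B6 and 7.52 to 10.1 in D2 (difference 0.95, SE 0.12, adjusted p = 2.51e-06). Over 33 BXD lines Pramef12 RNA and the start region had r 0.813 and rho 0.733 (permutation test, adjusted p = 2e-05 for each). Within the 11 lines high for Pramef17 r was -0.045 and within the other 22 it was 0.457, so this relation too was weaker inside the sets. The weakest call at this gene, chr4:144406139-144406750 (0.34, adjusted p = 0.0475), was lost when any 1 of 5 of the 6 libraries was left out.

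Near Pramel4 and Pramel5, which have no RNA values here, 1 ATAC region each was called higher in D2. It was chr4:144040929-144041750 for Pramel4, at 1.67 to 2.20 in B6 and 3.68 to 4.39 in D2 (difference 1.08, SE 0.15, limma adjusted p = 7.68e-06). For Pramel5 it was chr4:144299378-144299875, at 1.57 to 1.83 and 2.49 to 2.71 (0.62, SE 0.16, adjusted p = 0.00427). In the BXD lines the Pramel4 region was above its largest gap in the same 11 lines as Pramef17 RNA. It too lies near Pramef17, so this agreement is not independent either.

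In EpiLCs the ATAC table held 9 regions within 20 kb of a member and none near Pramef17. Of these, 5 were called higher in D2 and 1 lower, where 25.6% of the 100415 regions were called higher and 32.6% lower. At Pramef12 the region over the start, chr4:144405838-144410477, was at 24.5 to 28.6 in B6 and 34.2 to 36.8 in D2 (difference 0.40, SE 0.06, limma adjusted p = 3.31e-08), and the intragenic one, chr4:144395476-144397243, at 4.74 to 5.95 and 11.6 to 13.4 (1.16, SE 0.09, adjusted p = 3.25e-16). Past the end of Pramel5, chr4:144267236-144267955 was at 0.620 to 0.837 in B6 and 3.58 to 4.38 in D2 (difference 2.25, SE 0.19, adjusted p = 6.23e-15). The region lost in D2 beside Pramel6 was lost in EpiLCs as well (4.84 to 5.91 against 0.216 to 0.394; -3.85, SE 0.22, adjusted p = 1.34e-21). The 1 EpiLC region near Pramel7, chr2:87480727-87481730, was at 2.96 to 3.63 in B6 and 3.13 to 3.33 in D2 and was not called (adjusted p = 0.768).

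In the F1 ATAC table, which the authors deposited on a log2 scale, 42 regions lay within 20 kb of a member and 4 were called different from the midpoint of the parents, all higher, where 8.18% of all regions were called. The midpoint is that of the log2 values. Where the parents differ, their mean on the linear scale lies above it. The direction of these calls therefore does not by itself set the F1 apart from that mean. The region 7.07 kb past Pramef17 was at 3.20, 3.37 and 3.20 in the F1, against 1.75 to 1.81 in B6 and 3.50 to 3.80 in D2, which is 0.56 above the midpoint (SE 0.09, limma adjusted p = 6.97e-05). Its accessibility in the F1 thus lay closer to D2 than to B6. The region beside Pramel6 that D2 had lost was 1.05 above the midpoint (SE 0.14, adjusted p = 6.94e-06), with 1.55 to 1.87 in the F1 against 2.20 to 2.36 in B6 and -0.98 to -0.83 in D2. The other 2 were chr2:87520382-87521969 (0.39, adjusted p = 0.00316) and chr4:144406139-144406750 at Pramef12 (0.43, adjusted p = 0.0182), the latter lost without some libraries (adjusted p up to 0.15).

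TRIM28 is the corepressor through which zinc finger proteins silence retroviral insertions and many tandem gene clusters. Of 22 TRIM28 regions within 20 kb of a member, 11 were called higher in D2, 4 lower and 7 neither, where 19.7% of all 94211 regions were called higher and 18.4% lower. At Pramel7, Pramel6 and Pramef12, which were chosen with higher RNA in D2, the TRIM28 region over the start was also higher. Of the 4 lower calls, 3 were at Pramef17 and 1 at Pramel6. Input libraries were not used, so a general difference in signal at these places was not tested. The region over the RefSeq start of Pramel7, chr2:87488174-87494285, was at 12.7 to 14.2 in B6 and 19.8 to 23.9 in D2 (difference 0.69, SE 0.12, limma adjusted p = 1.22e-05), and that over Pramel6, chr2:87505291-87518799, at 44.7 to 51.4 and 59.0 to 69.3 (0.42, SE 0.11, adjusted p = 0.00186). At Pramef12 the region over the start, chr4:144406910-144408670, was at 3.47 to 4.57 and 5.41 to 7.06 (0.59, SE 0.19, adjusted p = 0.0118), a call lost without B41 or D29 (adjusted p = 0.0638 and 0.0701).

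TRIM28 was also higher in D2 near the chromosome 4 members without RNA values. For Pramel4, 2 of 4 regions were called higher and 2 were not called, and for Pramel5 the 1 region was called higher. Within 20 kb before the start of Pramel4, chr4:144043475-144044334 was at 0.512 to 0.834 in B6 and 4.28 to 7.06 in D2 (difference 2.92, SE 0.32, limma adjusted p = 5.63e-10). Past the end of Pramel5, chr4:144267168-144268074 was at 0.834 to 1.14 and 3.43 to 4.62 (1.88, SE 0.31, adjusted p = 2.49e-06). Beside Pramel6 the region lost in D2 ATAC also lost TRIM28, at 3.06 to 4.23 in B6 and 0.385 to 0.659 in D2 (difference -2.65, SE 0.37, adjusted p = 1.23e-07).

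At Pramef17 all 6 TRIM28 regions were called, 3 in each direction; Pramel6 had 1 call in each direction, given above. The nearest to the start, chr4:143988656-143991300, overlaps the end of the gene and was at 3.996 to 5.14 in B6 and 5.78 to 7.95 in D2 (difference 0.61, SE 0.18, limma adjusted p = 0.00652), lost without D55 (adjusted p = 0.0708). Next to it, chr4:143987405-143988538 was at 5.28, 6.02 and 3.996 in B6 and 1.41, 0.894 and 0.591 in D2 (difference -2.34, SE 0.31, adjusted p = 4.17e-08). Further out, chr4:143981083-143984134 was at 10.99 to 13.8 in B6 and 5.78 to 6.27 in D2 (difference -1.03, SE 0.15, adjusted p = 2.46e-07), and chr4:143978416-143980026 at 4.14 to 5.63 and 1.67 to 2.07 (-1.36, SE 0.24, adjusted p = 1.37e-05). At the far end chr4:143970935-143971879 rose from 0.714 to 1.11 in B6 to 4.42 to 6.80 in D2 (difference 2.52, SE 0.29, adjusted p = 1.79e-09). The 3 regions that lost TRIM28 in D2 were consecutive and began between 2.58 and 11.1 kb past the gene's end, and 1 of them, chr4:143981083-143984134, holds most of an ATAC and a POU5F1 region whose signals were higher in D2.

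**Figure D3:**
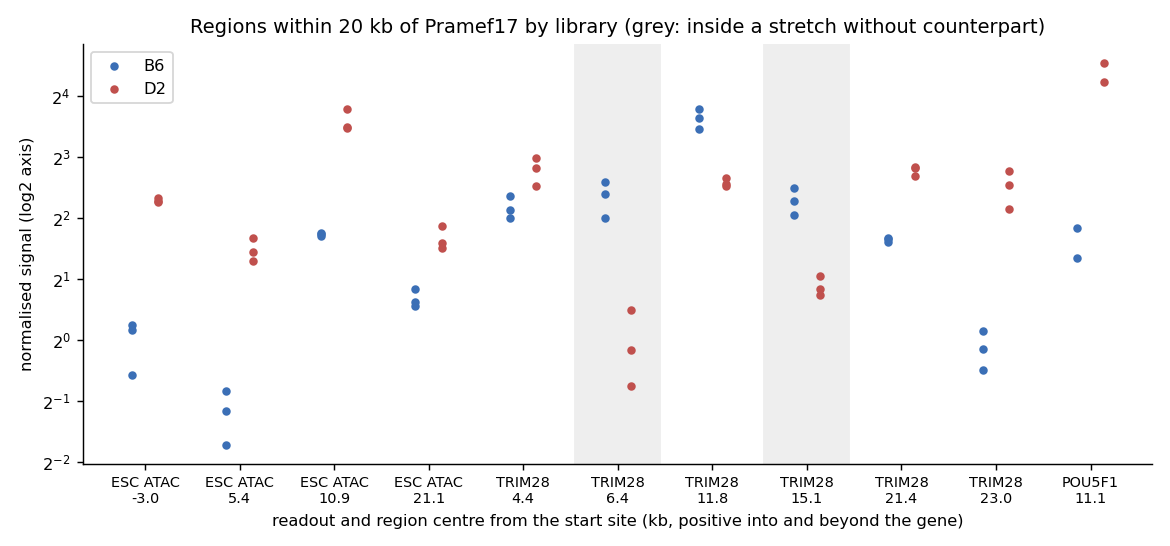
Signal of each library (B6 blue, D2 red, log2 axis) in every region within 20 kb of Pramef17, ordered by readout and by distance of the region's centre from the start site in kb. ATAC and POU5F1 points are higher in D2 in every region, whereas 3 of 6 TRIM28 regions are lower in D2; grey marks the 2 of these that lie inside stretches absent from the copy at Gm13128.

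The reference sequence shows what these regions overlap. Compared with its copy at Gm13128, the Pramef17 side of the duplication has 2 long stretches without a counterpart near the gene's end, chr4:143975533-143980475 (4943 bases) and chr4:143983954-143988830 (4877 bases). A shorter one of 1009 bases, between positions 143981234 and 143982244, was not examined further. Each of the 2 long stretches begins with TG, ends with CA and carries the same sequence at both ends, 611 bases at 99.84% identity in the first and 424 bases at 100% in the second. Each is also flanked by a short direct repeat, 4 bases in the first and 6 in the second. Long terminal repeats between short duplications of the target are, as background, the structure that a retroviral insertion leaves. The bases on both sides of each stretch are printed here on the plus strand of GRCm38, with the direct repeat in capitals, above the uninterrupted copy at Gm13128 (chr4:144338205-144338260 and chr4:144335723-144335776, minus strand), because they show where the 2 copies part.
Stretch 1, left: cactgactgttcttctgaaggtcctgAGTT
Stretch 1, right: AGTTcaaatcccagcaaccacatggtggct
Stretch 1, copy at Gm13128: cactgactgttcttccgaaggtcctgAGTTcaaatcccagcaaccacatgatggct
Stretch 2, left: tttctcctttgagtgaagagcaagATCAGC
Stretch 2, right: ATCAGCagctacaatcagctgagcaaagat
Stretch 2, copy at Gm13128: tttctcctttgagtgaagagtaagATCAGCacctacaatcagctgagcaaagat
Joined at the direct repeat, the flanks match the copy at 54 of 56 bases for the first stretch and at 52 of 54 for the second. Of the 3 TRIM28 regions that were lower in D2, chr4:143978416-143980026 lies wholly inside the first stretch and chr4:143987405-143988538 wholly inside the second, and neither has a counterpart at Gm13128. The third, chr4:143981083-143984134, holds the shorter stretch, and 61% of it has a counterpart. No ESC ATAC region lies inside either stretch. The ATAC regions chr4:143982940-143984054 and chr4:143988732-143989206 sit at the 2 edges of the second stretch, and their counterparts at Gm13128 meet, sharing the 6 bases of the direct repeat. Whether D2 lines carry these stretches was not tested, since D2 sequence was not used here; a difference in binding and a difference in the sequence that reads can map to cannot be told apart.

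The regions at Gm13128 resemble those at Pramef17 at about the identity given above, so some reads may fit both places. Where the second stretch would lie, the ATAC region chr4:144335317-144336696 was at 7.50 to 11.1 in B6 and 7.48 to 8.28 in D2 and was not called (-0.22, SE 0.12, limma adjusted p = 0.134). TRIM28 over it, chr4:144334589-144336826, was lower in D2, at 4.71 to 5.76 in B6 and 0.946 to 1.67 in D2 (difference -1.85, SE 0.27, adjusted p = 2.42e-07). A further TRIM28 region, chr4:144339827-144341185, was higher in D2, at 2.71 to 3.59 in B6 and 4.88 to 5.13 in D2 (difference 0.63, SE 0.21, adjusted p = 0.0131). The ATAC region nearest to the start of Gm13128, chr4:144326698-144327634, was at 0.761 to 1.22 in B6 and 4.53 to 5.64 in D2 (difference 2.22, SE 0.18, adjusted p = 8.23e-09). On the other side of Gm13128, outside the aligned segments, chr4:144311931-144313866 was more open in D2 (9.13 to 9.47 against 19.4 to 23.1, difference 1.18, SE 0.08, adjusted p = 8.82e-10). It bound more POU5F1 (6.87 and 7.55 against 23.5 and 36.0, difference 1.88, SE 0.25, adjusted p = 8.04e-12). TRIM28 over it, chr4:144311993-144313705, was lower in D2 (5.71 to 6.91 against 3.81 to 4.49, difference -0.54, SE 0.18, adjusted p = 0.0174).

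P300 and POU5F1 were higher in D2 at several of the same elements. Of 6 P300 regions within 20 kb of a member, 4 were called higher in D2 and none lower, where 6.17% of all 42716 regions were called higher and 5.16% lower. Of 6 POU5F1 regions, 4 were called higher and none lower, where 6.48% of all 42955 were called higher and 4.36% lower. The element beyond Pramel6 had the largest P300 difference, chr2:87514444-87517827 at 36.8 and 40.6 in B6 and 180 and 114 in D2 (difference 1.86, SE 0.17, n = 2 per strain, limma adjusted p = 9.65e-13). POU5F1 there, chr2:87514507-87517644, was at 45.2 and 40.0 in B6 and 92.4 and 121 in D2 (difference 1.29, SE 0.13, adjusted p = 3.45e-19). At Pramef17 the only POU5F1 region, chr4:143982374-143984151, coincided with the ATAC region 7.07 kb past the gene and was at 2.53 and 3.55 in B6 and 18.8 and 23.3 in D2 (difference 2.45, SE 0.37, adjusted p = 3.59e-09).

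The other called regions of P300 and POU5F1 differed less. Nearest to the start of Pramel6, P300 in chr2:87499896-87504171 was at 27.2 and 28.9 in B6 and 59.1 and 38.9 in D2 (difference 0.75, SE 0.19, limma adjusted p = 0.00403), and beyond the end of Pramel7, P300 in chr2:87480023-87482358 was at 26.4 and 28.9 and at 79.3 and 42.4 (1.04, SE 0.21, adjusted p = 8.4e-04). Inside Pramef12, P300 in chr4:144402803-144405438 was at 22.3 and 18.8 in B6 and 34.1 and 34.0 in D2 (difference 0.71, SE 0.20, adjusted p = 0.0116), while POU5F1 there was not called (0.40, adjusted p = 0.198). POU5F1 in chr2:87480397-87482259 beyond the end of Pramel7 was at 30.7 and 27.5 in B6 and 42.8 and 41.2 in D2 (difference 0.51, SE 0.17, adjusted p = 0.0278), and in chr2:87502215-87504220 before Pramel6 at 11.2 and 16.9 and at 26.1 and 27.2 (0.91, SE 0.22, adjusted p = 8.78e-04). With 2 lines per strain, leaving out a library leaves 1 in that strain, which is then assumed to vary like the other strain: 2 of the 4 P300 calls were kept without B41 or without B51, and 1 of the 4 POU5F1 calls was kept without D55, when the adjusted p at Pramef17 became 0.0716.

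**Figure D4:**
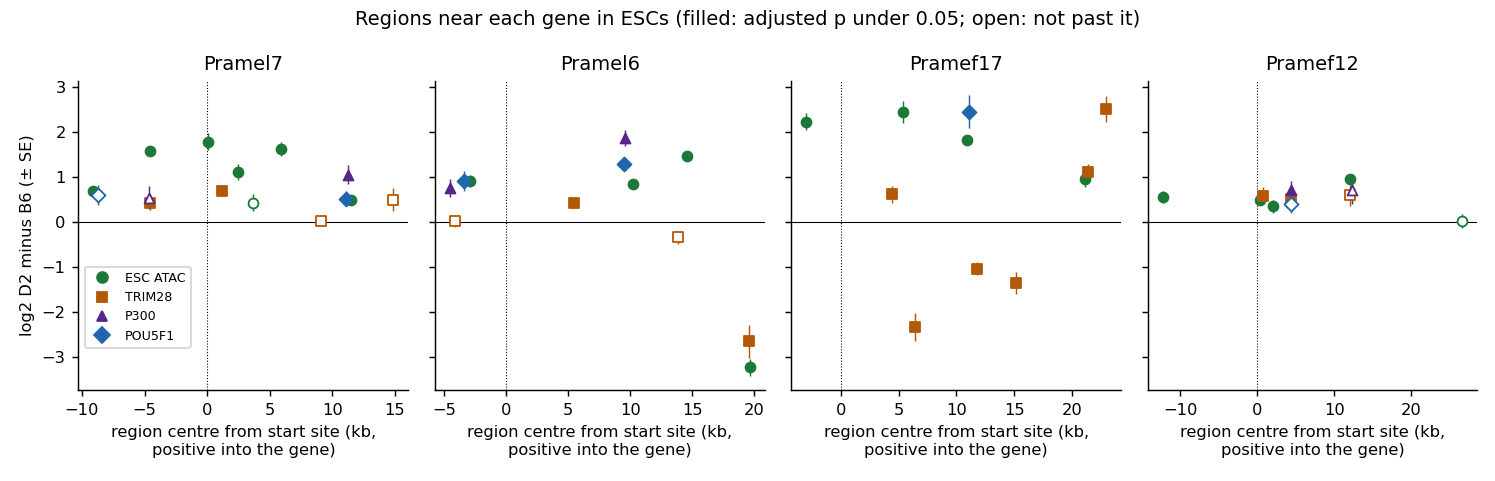
Log2 D2 minus B6 difference (± SE) of every ESC region within 20 kb of Pramel7, Pramel6, Pramef17 or Pramef12 against the distance of its centre from the start site in kb, positive into and beyond the gene. Filled marks passed an adjusted p under 0.05; ATAC, P300 and POU5F1 marks lie above 0 except the region lost in D2 at the right of the Pramel6 panel, and TRIM28 marks of Pramef17 lie on both sides of 0.

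Other PRAME genes of the tables differed between the strains by varying amounts. Of 14 genes whose symbol begins with Prame in the gene list, 6 were in the ESC table and 3 in the EpiLC table. Pramef8 (named Pramel12 by RefSeq) was higher in D2 ESCs (35.8 to 42.7 against 122 to 144; 1.66, SE 0.10, limma adjusted p = 4.03e-06) and slightly higher in D2 EpiLCs (23.6 to 26.9 against 29.3 to 35.1; 0.37, SE 0.09, adjusted p = 0.00507). Pramel1 was not called in ESCs (0.08, SE 0.24, adjusted p = 0.822) or in EpiLCs (-0.32, SE 0.13, adjusted p = 0.0508). By RefSeq name the tables also held Gm13119 (Pramel31), not called in ESCs (0.51, SE 0.43, adjusted p = 0.373), and A430089I19Rik (Pramel39) of chromosome 5, lower in D2 EpiLCs (1.70 to 1.80 against 0.272 to 0.668; -0.94, SE 0.15, adjusted p = 1.97e-04). Within 1 Mb of the chromosome 4 members, 12 other genes were tested in ESCs, of which 5, Gm13128 among them, were higher in D2. The 2 that were lower were Pdpn (-2.08, limma adjusted p = 1.01e-05) and Gm13040 (0.722 to 1.42 in B6 and 0 in D2, -1.04, adjusted p = 0.00269). The 3 with the largest differences were Gm13128, Pdpn and Pramef8. In EpiLCs 11 were tested, of which 5 were higher in D2 and 2 lower, namely Gm13043 (-1.79, adjusted p = 1.14e-06) and BC080695 (-0.91, adjusted p = 2.27e-04). On chromosome 2, where olfactory receptor genes fill most of the neighbourhood, the 1 other tested gene was the pseudogene Gm13736, which lies inside the region lost in D2 (difference -0.59, SE 0.12, adjusted p = 0.00562).

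Counts in the pathways in which PRAME proteins act are set beside the shares over all genes, 17.3% higher and 20.3% lower in ESCs and 28.5% and 29% in EpiLCs. Of 13 genes of UHRF1 and DNA methylation, 4 were higher and 1 lower in D2 ESCs (median difference -0.04), and 5 of 12 were higher and 3 lower in EpiLCs. Uhrf1, whose protein PRAMEL7 targets, was at 564 to 621 in B6 and 544 to 655 in D2 ESCs (-0.01, SE 0.09, limma adjusted p = 0.944). The largest ESC differences were in Tet3, which oxidises methylcytosine (1.46, adjusted p = 4.64e-05), Dnmt3l, a cofactor of the de novo methyltransferases (1.45, adjusted p = 1.41e-04), Dnmt3b, one of these enzymes (1.26, adjusted p = 6.48e-04), and the DNA glycosylase Tdg (-0.60, adjusted p = 2.55e-04). Of 13 Cullin 2 ligase genes, 2 were higher and 4 lower in D2 ESCs (median -0.105); Cul2 itself, at 147 to 169 in B6 and 138 to 176 in D2, was not called (adjusted p = 0.982) and the substrate receptor Fem1b fell most (-0.80, adjusted p = 1.38e-04). Of 12 genes of LIF and STAT3 signalling, 1 was higher and 4 lower (median -0.05), among them Stat3 (-0.37, adjusted p = 0.00649) and the kinase gene Pim3 (-0.68, adjusted p = 0.00389). Of 24 silencing genes, 6 were higher and 7 lower (median -0.12), with Trim28 at 1253 to 1504 in B6 and 1667 to 1759 in D2 (difference 0.31, SE 0.09, adjusted p = 0.0189). Of 8 tested genes of the 2-cell-like state, in which many tandem gene families are active, none was higher and Dppa3 was lower (-1.04, adjusted p = 0.0363), while in EpiLCs none of 9 was higher and 6 were lower.

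By a rule on rank over the 33 BXD ESC libraries, the genes most like each member were taken from all tested genes, and the 95th percentile over all genes was a Spearman's rho of 0.359 for Pramef17, 0.485 for Pramel7, 0.464 for Pramel6 and 0.384 for Pramef12. For Pramef17 they were Ubxn2b (rho 0.800, chromosome 4), Gm17771 (0.794, chromosome 3), Sfi1 (0.708, chromosome 11), Epha4 (0.707, chromosome 1) and BC064078 (0.690, chromosome 6). In 22 of the 33 lines Pramef17 was at most 0.762, so its ranks there order values near the bottom of the table. For Pramel7 they were Nefh (0.837, chromosome 11), Hecw2 (0.790, chromosome 1), Mfsd1 (0.783, chromosome 3), Nefl (0.767, chromosome 14) and Pramel6 (0.761). For Pramel6 they were Nxf3 (0.827) and Magea4 (0.791) of chromosome X, Nup210l (0.786, chromosome 3), Dnajb11 (0.763, chromosome 16) and Pramel7. For Pramef12 they were 4933438K21Rik (0.856, chromosome 4), Tmem241 (0.814, chromosome 18), Fut10 (0.753, chromosome 8), Tmem47 (0.749, chromosome X) and Rmc1 (0.741).

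The labelled cell states matched their markers in outline. Naive ESC markers summed to 4614 to 4909 in parental ESC libraries and to 841 to 1180 in EpiLC libraries, and formative markers to 176 to 395 and 2865 to 3544. Over all genes, 17.3% were called higher and 20.3% lower in D2 ESCs. In ESCs 3 of 10 naive markers were higher and 2 lower in D2, and 5 of 8 formative markers were higher, with sums of 176 to 231.5 in B6 and 318 to 395 in D2. Genes of feeder fibroblasts summed to 1045 to 1351 in B6 ESCs and 1152 to 1603 in D2 ESCs (3 of 13 higher, 0 lower), and to 104 to 166 in EpiLCs. Trophectoderm genes summed to 95.7 to 127 in B6 and 43.8 to 67.5 in D2 ESCs (1 of 7 higher, 6 lower), primitive endoderm genes to 94.7 to 119 and 134 to 154 (1 of 4 higher), and germ line genes to 38.2 to 45.1 and 14.6 to 46.2 (0 of 5 higher, 3 lower). In EpiLCs, 28.5% of all genes were called higher in D2 and 29% lower. Of 9 naive markers there, 7 rose and 1 fell in D2. Their sums were 841 to 889 in B6 and 1053 to 1180 in D2. Formative markers moved both ways (4 of 9 up, 4 down). Primitive endoderm calls were all upward (4 of 6), with sums of 23.7 to 30.05 in B6 and 47.7 to 155.8 in D2. Feeder calls were 4 up and 1 down of 11, trophectoderm 3 and 1 of 7, and germ line 1 and 5 of 8. The part of these shifts of either state in the members' levels was not tested. Reads in regions came to 16300000 to 23100000 per parental ESC ATAC library, 5630000 to 17100000 per TRIM28 library and 8510000 to 18500000 per BXD ESC ATAC library; for RNA, P300 and POU5F1 only normalised values were used and the depth is unknown.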

How the data were processed

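RNA-seq, ATAC-seq and ChIP-seq of B6, D2, F1 and BXD cells were compared by strain, state and line. Per the submitters' processing notes, the authors used HISAT2 2.0.5, Bowtie 1.0.0, MACS 1.4.2, Cell Ranger and the mm10 build; no source used here says which tool made which file. The deposited values are normalised signal per gene or region, except the F1 ATAC table, deposited by the authors on a log2 scale, and the embryoid body matrix, deposited as counts of UMIs. Every column had a sample (0 without). Values below 1e-06 were set to 0.

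Differences were fitted with limma 3.58.1 (R 4.3.3) on log2(value + 1) for RNA, P300 and POU5F1 (genes with a mean of at least 0.5) and log2(value + 0.1) for ATAC and TRIM28, over each whole table, with Benjamini-Hochberg adjustment over all features and a threshold of 0.05; P300 and POU5F1 have 2 libraries per strain. The log2 scale understates differences of low genes. ATAC and TRIM28 values are whole multiples of 1 read to within 0.01 of a read (100% of values), so edgeR 4.0.16 on the recovered reads was an alternative. Parental lines carry 1 library per assay and p-values measure the spread between lines. The fits were tested on simulated data. Regions were assigned to a member within 20 kb. Named genes were the members and the 5 genes most like each by rank over BXD lines. Also named were the 4 list genes and 3 neighbours with the largest differences. Chromosome 4 neighbours called lower in D2 and the genes that a list is about were named as well. The members and lists were chosen with earlier results of these data known. Sequences came from RefSeq tables and GRCm38; copies were found with blastn 2.17.0. BXD correlations used 100000 permutations (scipy 1.17.1). Alternatives were other pseudocounts, filters, scalings, windows, tools, a replicate block and leaving out each library. TRIM28 input libraries were not used here.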

Additional observations from a re-analysis of the deposited data

Results flagged for a closer look

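Gm13736, the pseudogene inside the chromatin region beside Pramel6 that was nearly lost in D2, changed in opposite directions in the 2 states. In ESCs every D2 line (6.49 to 8.38) lay below every B6 line (11.2 to 12.04), a log2 difference of -0.5893 (limma adjusted p = 0.00562), and in EpiLCs every D2 line (21.8 to 24.4) lay above every B6 line (10.9 to 16.96), a difference of 0.6915 (adjusted p = 8.74e-04). The difference between the states was not tested.

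The embryoid body library, a pooled single-cell sample of both strains that enters no comparison here, held 317 UMIs of Pramef12 (exact Poisson 95% interval 283 to 354, counting error only) in 292 of 20134 cells (1.45%). Pramel7 had 3 UMIs, Pramel5 had 1, and Pramef17, Pramel6 and Pramel4 had 0, which by a floor of 3 counts allows a share of up to 0.0149% of cells with a UMI. Cells were assigned neither to strains nor to types, and RNA free in the droplets was not separated, so these values show no expressing cell type.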

How the results depend on the processing

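Of 705 alternative values for 69 single genes and regions, 653 kept their direction and their side of the threshold, 40 lost a call, 4 gained one, 4 untested values moved and 4 reversed. The reversals were Pramef17 in the F1 with a pseudocount of 0.1 (0.24) and summed with Gm13128 (0.19, chosen after seeing the data), Pramel6 in the F1 without F117 (-0.24, in a range of -0.2401 to 0.4066 over left-out libraries) and the uncalled EpiLC ATAC region of Pramel7 without B41 (0.0108, in a range of -0.1336 to 0.0108). Summing Pramef17 with Gm13128 in ESCs gave 4.81.

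In the upper part of features by mean signal the calls came to 26658 of 52643 for ESC ATAC, 32644 of 58437 for EpiLC ATAC, 19672 of 35908 for TRIM28, 2287 of 4839 for P300 and 2939 of 4656 for POU5F1, and near members to 9 of 21 for ESC ATAC, 2 of 6 for EpiLC ATAC and 6 of 15 for TRIM28; fewer features were tested. The share of calls that were higher in D2 moved from 43.96% to 29.6% for EpiLC ATAC and from 54.5% to 69.2% for P300. Windows of 5 kb held 13, 3 and 8 calls for ESC ATAC, EpiLC ATAC and TRIM28, and windows of 50 kb held 10 for EpiLC ATAC and 23 for TRIM28.

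Leaving out 1 library gave 127 to 1181 calls for F1 RNA (418 with all; 1181 without DAC203, 127 without F124), 8427 to 27060 for F1 ATAC (19729; 8427 without F116), 1222 to 11399 for P300 (4839; 1222 without B51, 11399 without D55) and 1716 to 4497 for POU5F1 (4656; 1716 without D55, 2275 without D29). For P300 and POU5F1 the lone library left in a strain is assumed to vary like the other strain. Calls near members ranged from 2 to 5 for P300 and from 1 to 3 for POU5F1. The cause was not tested.

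With the replicate number as a block, calls were 3470 for ESC RNA (4772 without), 6901 for EpiLC RNA (7293), 47836 for ESC ATAC, 57068 for EpiLC ATAC, 36930 for TRIM28 and 5397 for P300. Same-numbered samples are different lines and had correlations from -0.39 to 0.103, so the numbers were not taken to pair samples. Under the block the Pramef12 ATAC region chr4:144406139-144406750 had an adjusted p of 0.0686. No paired analysis was possible for POU5F1 because both D2 libraries carry the same number, or for the F1, whose labels carry none.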
